A study of Mus musculus with 9 samples.

Results

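The miRNAs described here are known from neural tissue: mmu-miR-9-5p, mmu-miR-9-3p, mmu-miR-124-3p, mmu-miR-219-5p, mmu-miR-219-2-3p, mmu-miR-135a-5p and mmu-miR-135b-5p. These 7 names were chosen by name with their levels in the 8 genotype libraries in view, so those levels are a description. They filled 8 of 986 rows because miR-219-5p stood in 2 rows of different level, called here the first and the second row in the order of the table. The libraries held small RNA of mouse embryos at embryonic day 9.5 after dissection of heart and tail bud, so each describes the remaining embryo with its neural tube among other tissues. All 8 genotype libraries were labelled female, and each genotype had 1 library.

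The genotypes removed parts of the miR-17~92 cluster, a locus of 6 miRNA hairpins in 4 seed families. Wild type kept the full cluster. Single losses took out miR-92 (called ΔmiR-92), the miR-19 family (ΔmiR-19), miR-18 (ΔmiR-18) or the miR-17 family (ΔmiR-17). Joint losses were ΔmiR-17,18, ΔmiR-17,18,92 and a knockout of the whole cluster, called the full deletion. In ΔmiR-17,18,92 the miR-19 family is the only family left, and the full deletion removes it too. A further library, of undetermined reads, carries no genotype and was compared with none of them. How many embryos gave each library is not known from the labels, and with 1 library a genotype, a ratio compares 2 libraries and not 2 conditions.

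A miRNA is cut as a duplex from a hairpin precursor, and either arm (5p or 3p) can be loaded into an Argonaute protein, where bases 2 to 8, the seed, choose the messenger RNAs to repress. miR-9 acts in neural progenitors on regulators such as Hes1, and miR-124 in neurons on the splicing repressor Ptbp1. miR-219 is best known for driving oligodendrocyte differentiation, and one of the miR-135a hairpins sits in Rmst, a long noncoding RNA of the developing brain.

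The mature sequences show the seeds of the members at hand and which of them come from several genes. RefSeq's table for GRCm38.p6 held 4 of the 7 names, printed 5′ to 3′ with the seed in capitals:
miR-9-5p: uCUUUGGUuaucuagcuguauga
miR-9-3p: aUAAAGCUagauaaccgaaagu
miR-219-5p: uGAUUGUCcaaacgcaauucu
miR-135a-5p: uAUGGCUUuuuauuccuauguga

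The 4 seeds differed from each other, and no other mature entry of this partial table carried any of them, which says nothing of the seeds of the other 3 names. The arms of miR-9 thus have separate seeds, CUUUGGU for 5p and UAAAGCU for 3p. The 3 miR-9 hairpins are shown to make plain that they give the same pair of arms, in capitals, around loops of different sequence:
Mir9-1: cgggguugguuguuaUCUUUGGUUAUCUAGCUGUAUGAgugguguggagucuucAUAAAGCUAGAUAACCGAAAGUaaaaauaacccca
Mir9-2: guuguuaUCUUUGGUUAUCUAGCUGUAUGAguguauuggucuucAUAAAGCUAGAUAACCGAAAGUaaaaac
Mir9-3: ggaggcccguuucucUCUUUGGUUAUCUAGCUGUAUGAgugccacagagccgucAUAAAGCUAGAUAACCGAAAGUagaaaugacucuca

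Positions are those of GRCm38.p6, which is not the build of the deposited table, and overlaps are from the GENCODE annotation. Mir9-1 lies at chr3:88215598-88215686 in an intron of the lincRNA Gm3764, with the annotated miRNA gene Gm25641 on the opposite strand. Mir9-2 lies at chr13:83738814-83738885 in an exon of the lincRNA C130071C03Rik, and Mir9-3 at chr7:79505264-79505353 in an intron of Mir9-3hg, all 3 on the plus strand. Reads of either miR-9 arm therefore cannot be assigned to 1 of the 3 genes. miR-135a-5p comes from 2 hairpins, Mir135a-1 (chr9:106154124-106154213, plus strand, in an intron of D030055H07Rik and opposite an exon of Glyctk) and Mir135a-2 (chr10:92072086-92072185, minus strand, in an intron of Rmst). The 5p arm of miR-219 also comes from 2, at chr17:34025052-34025072 in Mir219a-1 and at chr2:29845689-29845709 in Mir219a-2, both on the minus strand.

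Hairpins are annotated on the strand opposite both miR-219 genes. The sequence printed above for miR-219-5p (miR-219a-5p in RefSeq) is the reverse complement of miR-219b-3p over all of its 21 bases and of miR-219c-3p over 20 bases. Neither opposite arm had a row in the deposited table, and no source used here says whether reads were counted by strand or which of the 2 rows of miR-219-5p stands for which gene.

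The genotype libraries held between 6564471 and 18481380 reads, lowest in ΔmiR-92 and highest in ΔmiR-18, and the member with the fewest reads still had 187. Levels are given in nRPM, the authors' normalised reads multiplied by 1 constant that brings the average total of the 8 libraries to that of RPM values. In nRPM, 1 read was worth between 0.0624 and 0.157 nRPM. Intervals are 95% exact Poisson intervals for a level and exact conditional (Clopper-Pearson) intervals for a ratio, and both cover counting error only. All 8 rows averaged over 10 nRPM and 5 over 100 nRPM, and the members together took between 0.768% of reads in wild type and 1.31% in ΔmiR-18.

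miR-124-3p, a defining miRNA of neurons, was read at 937 nRPM or more in every library. By average level the order was miR-219-2-3p at 4599 ± 446 nRPM (SD over the 8 genotypes), miR-9-5p at 2104 ± 1069, miR-135b-5p at 1542 ± 891 and miR-124-3p at 1200 ± 201. miR-135a-5p followed at 749 ± 529, then miR-9-3p at 97.0 ± 47.5, the second row of miR-219-5p at 88.7 ± 56.2 and its first row at 74.4 ± 55.0. Only the top place was clear of this spread, since miR-219-2-3p exceeded every other member in each of the 8 libraries. Neighbours below it overlapped in their ranges, apart from miR-9-3p and miR-135a-5p, whose ranges stood apart, from 49.5 to 198 and from 281 to 1954 nRPM.

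**Figure D1:**
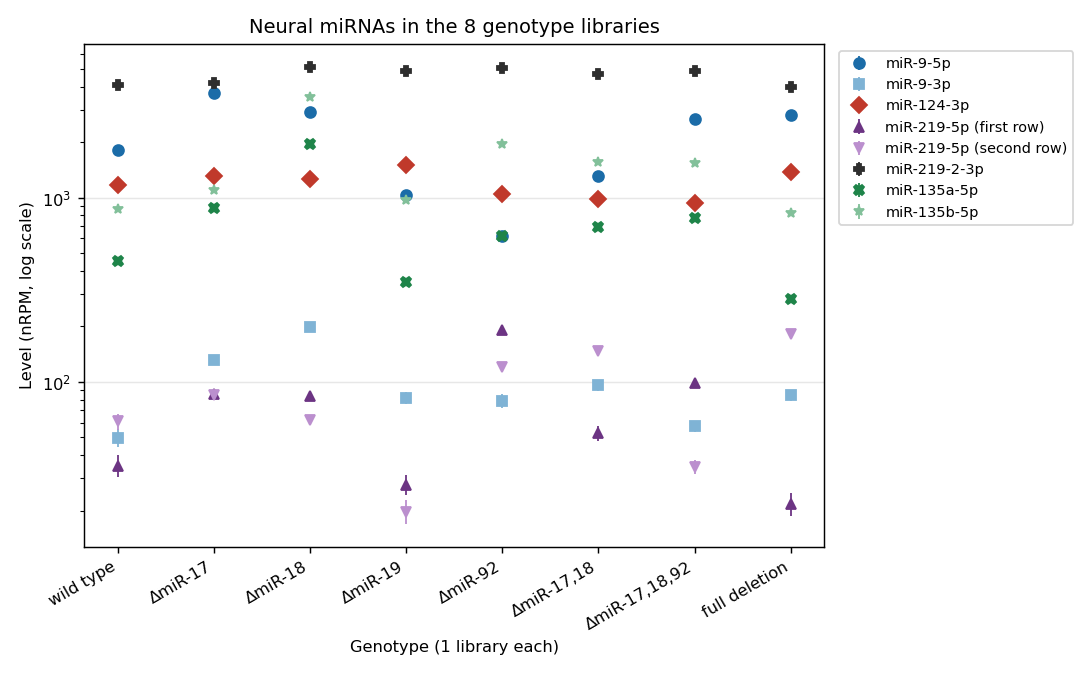
Level of each member row (nRPM, log axis) in the 8 genotype libraries, 1 library each, with 95% Poisson intervals where they exceed the symbol. miR-219-2-3p stays between 4002 and 5087 nRPM and miR-124-3p between 937 and 1502, while miR-9-5p runs from 620 to 3686.

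In bulk embryo libraries fewer cells of a type and less of a miRNA per cell cannot be told apart. The members divided by how far they varied. miR-219-2-3p and miR-124-3p kept close levels over the 8 libraries, and miR-9, miR-135 and the rows of miR-219-5p varied by several fold. Outside the cluster 319 miRNAs had an average of at least 100 nRPM, and among these the highest level was a median 2.35 times the lowest (quartiles 1.85 and 3.29).

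miR-219-2-3p, the 3p arm named for the Mir219a-2 gene, was the steadiest of these 319 miRNAs with a range of 1.27-fold. From high to low it measured 5087 nRPM for ΔmiR-18, 5060 for ΔmiR-92, 4870 for ΔmiR-17,18,92, 4848 for ΔmiR-19, 4665 for ΔmiR-17,18, 4184 for ΔmiR-17, 4077 for wild type and 4002 for the full deletion. Wild type, ΔmiR-17 and the full deletion were the 3 lowest libraries. Its place as the steadiest held with TMM scaling. With median-ratio scaling of the 8 libraries 0.313% of the 319 ranged less, with plain read totals the range was 1.55-fold and 3.76% of the 319 ranged less, and with totals outside the cluster 1.55-fold and 7.52%.

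miR-124-3p, which marks postmitotic neurons, ranged over 1.60-fold, and 11.3% of the 319 ranged less. Its levels were 1502 nRPM for ΔmiR-19, 1384 for the full deletion, 1315 for ΔmiR-17, 1265 for ΔmiR-18, 1168 for wild type, 1043 for ΔmiR-92, 986 for ΔmiR-17,18 and 937 for ΔmiR-17,18,92. The 2 libraries without miR-19 were the highest here, but with read totals outside the cluster the full deletion stood at a log2 difference of -0.0040 from wild type, below ΔmiR-17 at 0.16 and ΔmiR-18 at 0.14. No mutant reached 2-fold of wild type in either direction.

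**Figure D2:**
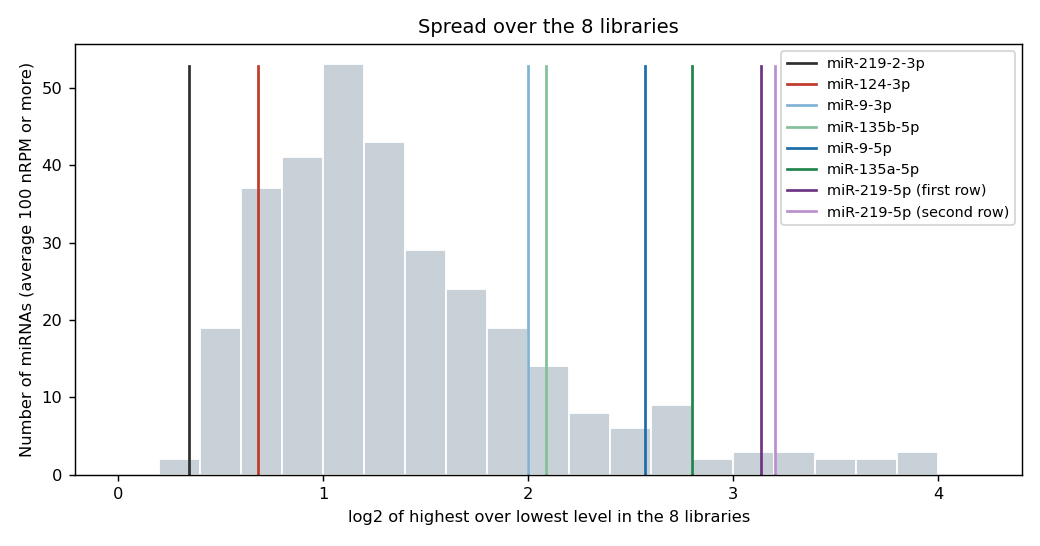
Number of miRNAs outside the cluster (bars, 319 averaging 100 nRPM or more) by log2 of the highest over the lowest level in the 8 libraries, with each member row as a vertical line. miR-219-2-3p lies at the left end and the 2 rows of miR-219-5p toward the right end; the 3 rows under 100 nRPM on average are drawn but not counted in the bars.

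miR-9-5p had a range of 5.94-fold, wider than that of 92.2% of the 319. It stood at 3686 nRPM for ΔmiR-17, 2897 for ΔmiR-18, 2821 for the full deletion, 2656 for ΔmiR-17,18,92, 1806 for wild type, 1313 for ΔmiR-17,18, 1037 for ΔmiR-19 and 620 for ΔmiR-92. Against wild type it was 2.04-fold in ΔmiR-17, just past the 2-fold mark, and 0.343-fold (0.332 to 0.356) in ΔmiR-92. The low library was a library of single loss, for the 2 other libraries that lacked miR-92 had 2656 and 2821 nRPM. Without ΔmiR-92 the range was 3.55-fold.

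miR-9-3p, the other strand of the same hairpins, followed another order. It had 198 nRPM for ΔmiR-18, 131 for ΔmiR-17, 95.5 for ΔmiR-17,18, 84.4 for the full deletion, 81.6 for ΔmiR-19, 78.7 for ΔmiR-92, 57.6 for ΔmiR-17,18,92 and 49.5 for wild type. Wild type was the lowest library, and the ratio in ΔmiR-18 was 3.99-fold (3.56 to 4.50). The levels of the 2 arms, each on the log2 scale, had Pearson r = 0.33 over the 8 libraries, given as a description.

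The 2 arms are cut from the same hairpins, and their ratio within a library does not depend on scaling. For 1 read of miR-9-3p there were 46.1 reads of miR-9-5p for ΔmiR-17,18,92, 36.5 for wild type, 33.4 for the full deletion and 28.2 for ΔmiR-17. The other 4 libraries had lower ratios, 14.7 for ΔmiR-18, 13.7 for ΔmiR-17,18, 12.7 for ΔmiR-19 and 7.88 for ΔmiR-92. The lowest and the highest ratio differed by 5.86-fold, and the interval of the lowest, 7.21 to 8.62, lay far from that of wild type, 32.6 to 40.9. The arms of miR-124 stayed closer, from 2.81 miR-124-3p reads for 1 miR-124-5p read in ΔmiR-18 to 5.95 in the full deletion, with 4.93 in wild type.

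**Figure D3:**
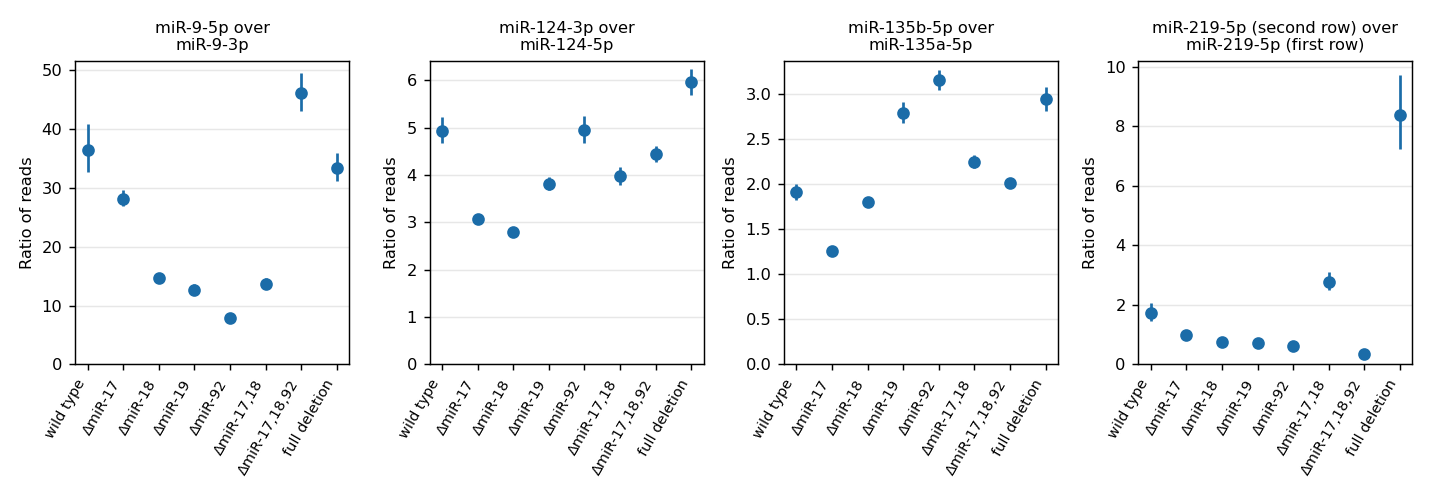
Ratio of reads within each of the 8 libraries for 4 pairs of members or arms, on linear axes from 0, with 95% counting intervals. The ratio of miR-9-5p to miR-9-3p runs from 7.88 in ΔmiR-92 to 46.1 in ΔmiR-17,18,92, and that of the miR-219-5p rows is highest in the full deletion, at 8.38.

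The rows of miR-219-5p, with ranges of 8.79-fold for the first and 9.22-fold for the second, did not follow each other. Both genes of miR-219-5p give the same mature sequence, so reads of that sequence cannot be assigned to either gene. The rows therefore cannot be read as separate levels of the mature miRNA, and what made them differ was not tested. The first row had 190 nRPM for ΔmiR-92, 98.4 for ΔmiR-17,18,92, 86.2 for ΔmiR-17, 83.8 for ΔmiR-18, 52.7 for ΔmiR-17,18, 34.9 for wild type, 27.6 for ΔmiR-19 and 21.6 for the full deletion. The second row had 181 nRPM for the full deletion, 146 for ΔmiR-17,18, 120 for ΔmiR-92, 84.5 for ΔmiR-17, 62.2 for ΔmiR-18, 60.9 for wild type, 34.6 for ΔmiR-17,18,92 and 19.7 for ΔmiR-19. The full deletion was thus the lowest library of the first row and the highest of the second. Without ΔmiR-92 the range of the first row was 4.55-fold, and without ΔmiR-19 that of the second was 5.23-fold.

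Second over first row, the ratio ran from 0.352 in ΔmiR-17,18,92 to 8.38 in the full deletion, which differ only in the miR-19 family, and the rows had r = 0.08. Against wild type the first row was 5.44-fold (4.72 to 6.30) in ΔmiR-92, and the second row 2.98-fold in the full deletion and 0.323-fold in ΔmiR-19. The partner arm miR-219-1-3p, from the Mir219a-1 gene, ranged from 635 to 956 nRPM, by 1.51-fold. For 1 read of miR-219-1-3p there were between 4.80 and 7.49 reads of miR-219-2-3p, and both 3p arms exceeded either row of the 5p arm in each of the 8 genotype libraries.

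miR-135a-5p and miR-135b-5p peaked in the same library. miR-135a-5p measured 1954 nRPM for ΔmiR-18, 876 for ΔmiR-17, 771 for ΔmiR-17,18,92, 695 for ΔmiR-17,18, 619 for ΔmiR-92, 452 for wild type, 346 for ΔmiR-19 and 281 for the full deletion. miR-135b-5p measured 3514 nRPM for ΔmiR-18, 1950 for ΔmiR-92, 1564 for ΔmiR-17,18, 1549 for ΔmiR-17,18,92, 1101 for ΔmiR-17, 967 for ΔmiR-19, 862 for wild type and 827 for the full deletion. ΔmiR-18 was the highest and the full deletion the lowest library of both, though with plain read totals wild type was the lowest for miR-135b-5p, and their levels had r = 0.86.

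In ΔmiR-18 miR-135a-5p was 4.33-fold of wild type (4.16 to 4.49) and miR-135b-5p 4.08-fold (3.96 to 4.19). Without that library the range was 3.12-fold in place of 6.95-fold for miR-135a-5p and 2.36-fold in place of 4.25-fold for miR-135b-5p. Other libraries that lack miR-18 did not share the peak: miR-135a-5p and miR-135b-5p together had 5469 nRPM for ΔmiR-18, but 2319 for ΔmiR-17,18,92, 2259 for ΔmiR-17,18 and 1108 for the full deletion, beside 1314 for wild type. The partner arms had no common direction there. miR-135a-2-3p had 72.0 nRPM for wild type and 120 for ΔmiR-18, a ratio of 1.66, and miR-135a-1-3p 65.0 and 51.1. The partner arm miR-135b-3p was at 47.9 nRPM for wild type and 40.0 for ΔmiR-18, so that the ratio of miR-135b-5p to miR-135b-3p was 18.0 for wild type and 87.9 for ΔmiR-18.

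ΔmiR-18 was also the deepest library, and the blood markers summed highest there, at 2933 nRPM against 1996 in wild type, with 7 of 8 markers in the table and the range over the libraries starting at 1223 nRPM. The muscle list (7 of 7 markers) stood at 3106 nRPM in ΔmiR-18 and 3067 in wild type, within a range from 2227 to 6128. The part of depth and of blood cells in the miR-135 levels was not tested.

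**Figure D4:**
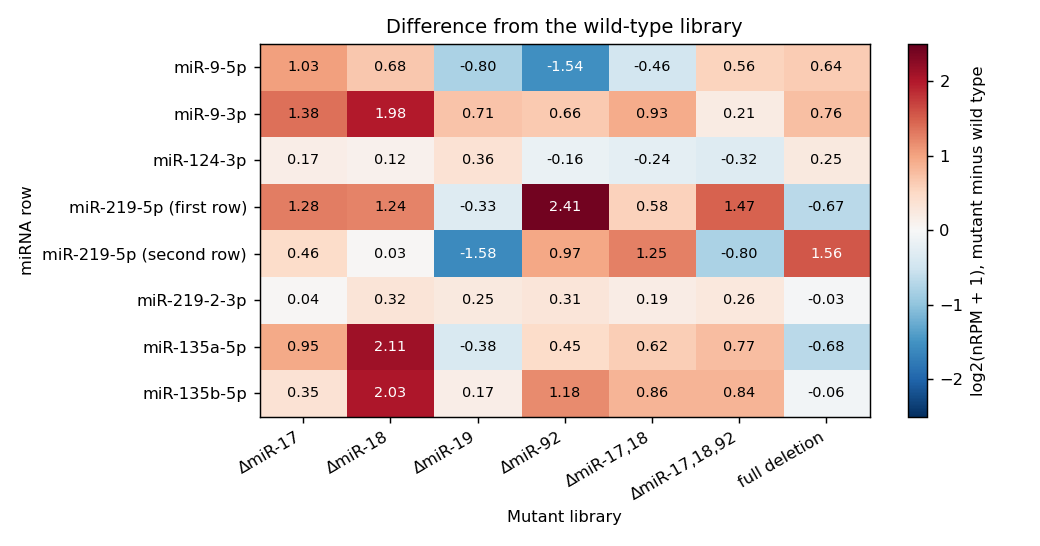
Difference of each member row from the wild-type library, as log2(nRPM + 1) of the mutant minus that of wild type, for the 7 mutant libraries (1 library against 1). miR-135a-5p and miR-135b-5p stand at 2.11 and 2.03 in ΔmiR-18, and the rows of miR-124-3p and miR-219-2-3p stay within 0.36 of 0.

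How many members passed 2-fold was read against all miRNAs outside the cluster, 538 averaging 10 nRPM or more and 319 averaging 100 or more. In ΔmiR-17, 3 of 8 rows passed, all higher, against 11.2% of the 538 and 6.9% of the 319. In ΔmiR-18, 4 of 8 rows passed, all higher, against 16.7% and 14.7%. In ΔmiR-92, 3 rows passed, 2 higher and 1 lower, against 16.9% and 14.1%. These counts rest on the 1 wild-type library: with the median of the other 7 libraries as reference, 3 rows passed in ΔmiR-18 (6.51% of the 538), 2 in ΔmiR-92 (9.29%) and 1 in ΔmiR-17 (9.48%).

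The other 4 mutants had 1 row each past 2-fold of wild type. The backgrounds were 14.1% and 9.72% for ΔmiR-19, 23.4% and 24.1% for ΔmiR-17,18, 20.3% and 15.4% for ΔmiR-17,18,92, and 18.2% and 16.6% for the full deletion. The row was the second of miR-219-5p in ΔmiR-19 (lower), in ΔmiR-17,18 (higher) and in the full deletion (higher), and the first of miR-219-5p in ΔmiR-17,18,92 (higher). In each of these mutants the row was thus of miR-219-5p, whose rows cannot be read as separate levels of the mature miRNA. With the median of the other 7 libraries as reference, 4 rows passed in ΔmiR-19, all lower (7.81% of the 538), 3 in the full deletion (9.85%), 2 in ΔmiR-17,18 (11.3%) and 1 in ΔmiR-17,18,92 (9.85%). The median log2 difference from wild type over the 8 rows was largest in ΔmiR-18, at 0.96, where the 538 had -0.02. It was 0.71 in ΔmiR-17 (0.02 over the 538), 0.60 in ΔmiR-17,18 (-0.01), 0.56 in ΔmiR-92 (-0.01) and 0.41 in ΔmiR-17,18,92 (0.02). In the full deletion it was 0.11 (0.04) and in ΔmiR-19 -0.08 (0.03). All of these medians rest on the 1 wild-type library.

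Each family was lost in 2 pairs of libraries, once from wild type and once from a mutant. The 2 pairs of a family share no library, but pairs of different families do. Wild type stands in a pair of every family, and ΔmiR-17,18 in pairs of miR-17, miR-18 and miR-92. The question was whether a member differed alike on the 2 backgrounds. No member row passed 2-fold in the same direction in both pairs of any family, and among the 538 the share that did was 4.28% for miR-18, 1.49% for miR-19, 0.929% for miR-17 and 0.372% for miR-92.

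With loss of miR-17, 2 of 8 rows passed 2-fold in opposite directions, against 2.79% of the 538. The log2 difference of miR-9-5p was 1.03 from wild type to ΔmiR-17 and -1.14 from ΔmiR-18 to ΔmiR-17,18, and that of miR-9-3p was 1.38 and -1.04. With loss of miR-92, miR-9-5p alone did so (2.6% of the 538), at -1.54 from wild type and 1.02 from ΔmiR-17,18. With loss of miR-19, the second row of miR-219-5p alone did so (2.23%), at -1.58 from wild type and 2.35 from ΔmiR-17,18,92, and with loss of miR-18 no row did (1.3%). The -1.14 and the 1.02 of miR-9-5p both rest on the 1 ΔmiR-17,18 library. Some of the rows past 2-fold in opposite directions depended on the scaling. With median-ratio scaling of the 8 libraries no row did so for miR-92, with plain totals miR-135a-5p took the place of miR-9-3p for miR-17, and with plain totals or totals outside the cluster the second row of miR-219-5p joined miR-9-5p for miR-92.

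**Figure D5:**
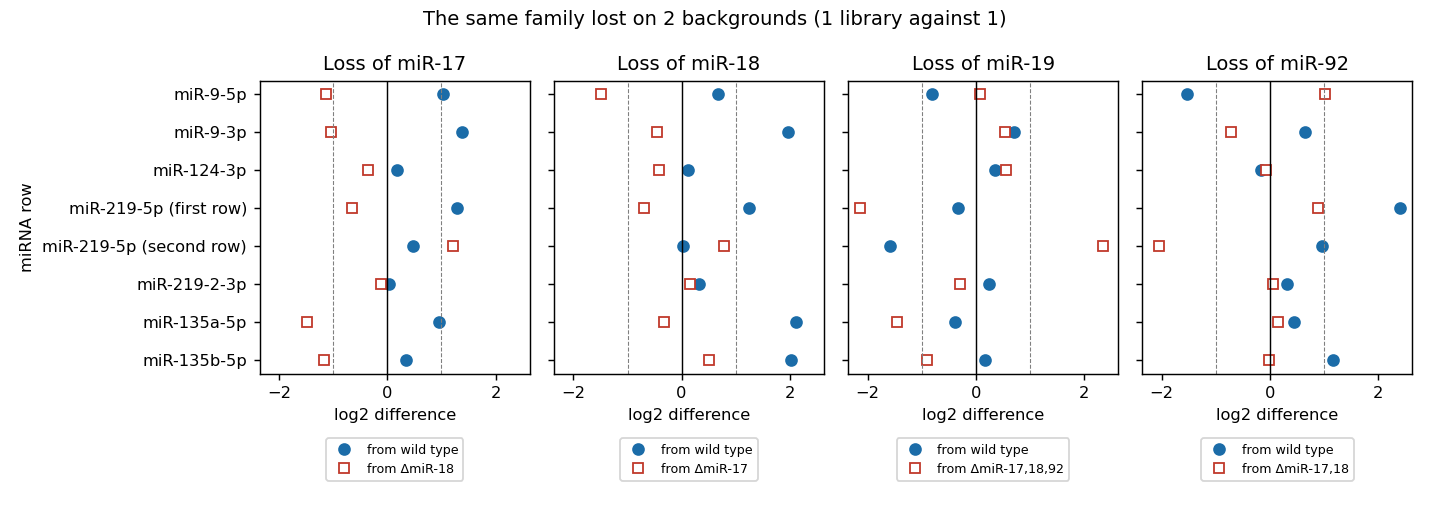
Difference in log2(nRPM + 1) on losing 1 family from wild type (filled circles) and from a mutant background (open squares) for the 8 member rows, each from 1 library against 1, with dashed lines at 2-fold. For loss of miR-17, miR-9-5p lies at 1.03 and -1.14 on opposite sides of 0.

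Over all 8 libraries, the 2 without the miR-19 family and the 6 with it stood apart by level for some members. The groups did not overlap for 3 of 8 rows, against 8.18% of the 538. The first row of miR-219-5p had 21.6 and 27.6 nRPM without miR-19 and between 34.9 and 190 with it. miR-135a-5p had 281 and 346 nRPM without and between 452 and 1954 with it, and miR-124-3p had 1384 and 1502 without and between 937 and 1315 with it. With read totals outside the cluster the groups of miR-124-3p overlapped, which left 2 rows (6.88% of the 538). For the other 3 families no member row stood apart in this way, where 5.2% of the 538 did for miR-18, 2.42% for miR-17 and 2.04% for miR-92.

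In a limma fit of all 8 libraries with 1 additive term a family, no member was called for any term. limma called 0 of 538 miRNAs (0%) for each family, and at an unadjusted p under 0.05 it had 20 for miR-18, 18 for miR-19, 12 for miR-17 and 8 for miR-92. edgeR's quasi-likelihood test also called 0, with 17, 15, 9 and 8 at that level in the same order, and DESeq2 called 0, with 27, 27, 21 and 21. By limma, loss of miR-19 gave the first row of miR-219-5p a log2 effect of -1.81 ± 0.51 (SE, adjusted p = 0.960) and miR-135a-5p one of -1.28 ± 0.46 (SE, adjusted p = 0.960). The effect on the first row of miR-219-5p was -1.20 without the full deletion and -2.52 without ΔmiR-19. No other member row had an unadjusted p under 0.05 by limma for any family.

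For that row the test and the rows fitted mattered. By DESeq2 the first row of miR-219-5p had an adjusted p of 0.0575 for loss of miR-19, and of 0.0377 when the deleted miRNAs themselves were kept in the fit, an alternative added after the data had been seen. The second row of miR-219-5p, the same mature name, had a limma log2 effect of -0.40 ± 0.78 (adjusted p = 0.976). The effect on the first row is a result for that row and cannot be read as a change of mature miR-219-5p as a whole.

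Of 19 further miRNAs listed for neural tissue, partner arms of the members among them, all had rows and 16 averaged 10 nRPM or more. limma called 0 of the 16 in either direction for each family, where 0 of 538 were called in all. Against wild type, the number of the 16 past 2-fold was 5 in ΔmiR-17,18,92, 4 in each of ΔmiR-92 and ΔmiR-19, 3 in each of ΔmiR-17,18, ΔmiR-18 and ΔmiR-17, and 2 in the full deletion, and the 2-fold shares of the 538 given above apply to these counts too. Past 2-fold the list had no common direction, with miRNAs on both sides in every mutant but the full deletion. Its median log2 difference lay between -0.38 in ΔmiR-17,18 (-0.01 over the 538) and 0.07 in ΔmiR-17 (0.02 over the 538). In every mutant but ΔmiR-17 the median of the list was below that of the 538. These medians rest on the 1 wild-type library.

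miR-7a-5p, abundant in neuroendocrine cells, was the most variable of the listed miRNAs over 100 nRPM. It had 5013 nRPM for ΔmiR-17,18, 3421 for the full deletion, 3267 for ΔmiR-92, 2309 for ΔmiR-18, 2029 for ΔmiR-17,18,92, 1954 for ΔmiR-19, 1523 for ΔmiR-17 and 868 for wild type, its lowest library. With the median of the other 7 libraries as reference in place of wild type, between 0 and 3 of the 16 passed 2-fold in a mutant. miR-137-3p, known from neural progenitors, was low throughout, from 4.39 nRPM in wild type to 31.9 in ΔmiR-18. In 6 of 7 mutants these miRNAs passed 2-fold together, and in ΔmiR-17 miR-137-3p did without miR-7a-5p.

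The other abundant listed miRNAs ranged less. miR-218-5p, known from motor neurons, lay between 1122 nRPM for the full deletion and 2608 for ΔmiR-17, and miR-128-3p between 636 for ΔmiR-17,18 and 1501 for ΔmiR-19. miR-134-5p lay between 5343 and 9169 nRPM, miR-153-3p between 191 and 651, miR-124-5p between 211 and 451, and miR-135a-2-3p, the partner arm from the Rmst intron, between 72.0 and 161. miR-132-3p and miR-138-5p, under 100 nRPM on average, gave the list's members past 2-fold on the low side.

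The miRNAs most like each member over the 8 libraries were ranked by Pearson r on log2(nRPM + 1) among 314 candidates, as a description with no test. For miR-9-5p they were miR-496-3p (r = 0.97), miR-341-3p (0.95) and miR-324-3p (0.87). For miR-135a-5p they were miR-27a-3p (0.96), miR-181a-1-3p (0.91) and miR-382-3p (0.81), and for miR-135b-5p miR-300-5p (0.86), miR-27a-3p (0.85) and miR-377-3p (0.83). miR-219-2-3p came closest to miR-122-5p, a liver miRNA (0.95), then to miR-300-5p (0.79) and miR-30b-3p (0.76). miR-122-5p, the only liver marker listed, had 69.4 nRPM for wild type, 71.0 for ΔmiR-17 and 76.7 for the full deletion, the 3 lowest libraries of miR-219-2-3p as well, and between 167 and 271 nRPM elsewhere, and its part in that pattern was not tested. miR-124-3p came closest to miR-486-5p and miR-3107-3p (0.91), which have the same values in the table, and to miR-3107-5p (0.90). miR-486-5p is an erythroid miRNA, and in the deposited scaling it was, like miR-124-3p, lowest in ΔmiR-17,18,92, at 608 nRPM, and highest in ΔmiR-19, at 1300.

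Markers of other tissues varied over the same libraries. The epithelial list (5 of 5) summed to between 7745 and 12538 nRPM, the endothelial pair (2 of 2) to between 7371 and 17558, and the Hox-cluster miRNAs of trunk and tail (4 of 4) to between 55288 and 77318. No marker of these lists was at 0 in any library except 2 blood markers in the full deletion. The part of tissue makeup in the member levels was not tested.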

How the data were processed

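Small RNA was measured in 8 genotype libraries and 1 library of undetermined reads. The deposited table holds a signal value per mature miRNA and library, which the authors made by dividing reads by 1 factor per library. Every value was a whole number of reads within 0.001 reads (100% of values). Reads were handled on build mm9 with featureCounts (Subread 1.4.2), SAMtools 0.1.19 and STAR 2.2.0, per the submitters' processing notes. No source used here gives the treatment of reads that map to several places.

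The table had 1046 rows for 977 accessions, 57 of them with several rows. Rows of 1 accession with totals within 10% were merged and the higher was kept, 8 accessions stayed as separate rows, and 986 rows remained. The listings of miR-135a-5p were merged in this way. Values were multiplied by 0.116 to give nRPM. Before taking log2, 1 nRPM was added, which makes changes of low miRNAs look smaller.

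limma 3.58.1 (R 4.3.3) was fitted with trend on log2 values, with additive terms for the 4 families over 8 libraries (3 residual degrees of freedom), on 538 rows outside the cluster with an average of at least 10 nRPM. Adjustment followed Benjamini and Hochberg, with calls at 0.05. The values are normalised, so limma was the main test, and edgeR 4.0.16 and DESeq2 1.42.0 ran on the recovered reads. On simulated data of 538 miRNAs, limma recovered 100% of changes of log2 2 for each family, between 84% and 89% of changes of log2 1, and called between 1.18% and 5.33% of unchanged miRNAs. Those counts had 100 miRNAs changed at each size and a set dispersion of 0.05, which was not estimated from these libraries. The rates hold for that setting and do not say what the fit could recover in the real libraries. The p-values rest on the spread of libraries that each have a genotype of their own.

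The members, the neural list and the marker lists were chosen with earlier results of these data known. Named were the members, the listed neural miRNAs averaging 100 nRPM or more, and for each member at that level the 3 miRNAs with the highest Pearson r. miR-137-3p, miR-132-3p, miR-138-5p, miR-135a-1-3p and miR-135b-3p fall outside this rule and were chosen after their values were seen. Alternatives were the scaling, the pseudocount, the filter, the test, the reference library, the rows of miR-219-5p and leaving out each library.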

Additional observations from a re-analysis of the deposited data

Results flagged for a closer look

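With Dixon's criterion at 95% over the 8 genotype libraries, which by chance marks about 1 in 20 groups, 1 library stood apart for 3 of the 8 member rows. These were ΔmiR-92 for the first row of miR-219-5p, at 190 nRPM, and ΔmiR-18 for miR-135a-5p, at 1954 nRPM, and for miR-135b-5p, at 3514 nRPM. The criterion was applied to nRPM without taking log2, and its rate of 1 in 20 assumes normally distributed levels. How many of the 538 miRNAs it marks was not computed, so the 3 rows have no background share. The libraries are of different genotypes, so this criterion does not separate genotype from library.

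Log2 differences past 2-fold in both pairs and of opposite sign, on losing the same family from 2 backgrounds, were found for 3 rows, and the difference between the backgrounds was not tested. For miR-9-5p they were 1.03 and -1.14 with loss of miR-17 and -1.54 and 1.02 with loss of miR-92. For miR-9-3p they were 1.38 and -1.04 with loss of miR-17, and for the second row of miR-219-5p -1.58 and 2.35 with loss of miR-19. The -1.14 and 1.02 of miR-9-5p and the -1.04 of miR-9-3p rest on the same ΔmiR-17,18 library.

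The library of undetermined reads held 7 of the 8 rows above the wild-type level, with no genotype to compare. The total of wild type over the member rows, 8510 nRPM, was the lowest of the 8 genotype libraries. Row by row, in the deposited scaling, wild type was the lowest library for miR-9-3p alone. The share of all miRNAs above wild type in the undetermined library was not computed. There miR-9-5p had 4047 nRPM, miR-9-3p 76.7, miR-124-3p 1299, miR-135a-5p 519 and miR-135b-5p 1260. The first row of miR-219-5p had 774 nRPM, above all 8 genotype libraries, and the second row 105.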

How the results depend on the processing

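Log2 ratios of members to wild type were recomputed 336 times, under other scalings, a pseudocount of 10 nRPM or another reference. Of these, 213 stayed within the counting interval and 123 moved beyond it. Sign was followed only for ratios past 2-fold in the deposited scaling, and 0 of these changed it. Some smaller ratios changed sign. That of miR-135b-5p in ΔmiR-17 went from 0.35 to -0.49 with the median of the other 7 libraries as reference. With the median of the other 7 libraries as reference, the number of member rows past 2-fold was 4 in ΔmiR-19, 3 in the full deletion, 2 in ΔmiR-17,18 and 1 in ΔmiR-17. In ΔmiR-17,18,92 it was 3 with plain read totals and 0 with the row of miR-219-5p of higher total alone. With plain totals the median log2 difference of the 319 miRNAs from wild type reached 0.39 (ΔmiR-17,18,92), against 0.02 in the deposited scaling. In the full deletion this median was 0.10 in the deposited scaling, 0.13 with TMM and -0.15 with totals outside the cluster. limma called between 0 and 1 miRNA for loss of miR-18 when 1 library was left out, the call arising without ΔmiR-92 (miR-367-3p, adjusted p = 0.0486), and 0 for the other families. DESeq2 with the deleted miRNAs kept called 1 miRNA outside the cluster for miR-18 and 2 for miR-19, the first row of miR-219-5p among them. No paired analysis was possible because each genotype had 1 library. The background with the median as reference, and the non-overlap and opposite differences under other scalings, were added after the data had been seen.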

Other observations

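miR-135a-5p was listed in the table in 2 rows of equal level in wild type, 452 nRPM, whose totals over the 8 genotype libraries were 5972 and 5995 nRPM. In the library of undetermined reads the same rows had 993 and 519 nRPM. The row of the higher 8-library total was used throughout.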
